A study of Mus musculus with 2 samples.

Results

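The 31 genes described here encode the proteins that form, limit and dissolve blood clots. They were chosen by name, from a fixed list of gene symbols, and each symbol matched 1 of the 32285 mouse genes listed in both libraries. By their usual source, 22 are hepatocyte-made plasma proteins and 9 are made mainly by other cells. Expression was measured by droplet-based single-cell RNA-seq with 3' chemistry in suspensions of mouse liver, as unique molecular identifiers (UMIs) per gene and droplet barcode. There were 2 libraries. The WT library came from wild-type mice, and the HKO library from their littermates, in which floxed miR-33 was removed from hepatocytes by Cre under the albumin promoter. The labels name the sample miR-33 HKO and give its genotype as AlbCRE, and whether the WT mice carried the floxed alleles was not given in the sources used here. All mice started the CD-HFD, a high-fat diet deficient in choline, at 8 weeks of age and ate it for 6 months, which in this model leads to steatohepatitis (MASH). Each library was a pool of 3 livers, in which hepatocytes and sorted live non-parenchymal cells (70000 sorted) were isolated apart and mixed 1 to 1. As each genotype had a single library without replicates, genotypes were compared by size alone, with no test, and every interval given is a 95% interval for counting error only.

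Blood clots when thrombin, cut from prothrombin by activated factor X with factor V as its helper, turns soluble fibrinogen into fibrin. Tissue factor with factor VII starts the cascade, the contact factors and factors XI, IX and VIII amplify it, and antithrombin, protein C, protein S and tissue factor pathway inhibitor restrain it. Plasmin, made from plasminogen, dissolves the clot. Hepatocytes secrete most of these proteins into plasma, whereas endothelial cells, macrophages and other cells of the vessel wall supply several of the regulators.

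The study removed miR-33 from hepatocytes, so the members were searched for letters that pair with its seed. The mature mouse sequence (RefSeq, GRCm38.p6, chr15:82198127-82198147, + strand) and the 3 members with a match in an annotated 3'UTR (GENCODE M21, GRCm38) are shown, with the seed, bases 2 to 8, and the matching letters in capitals.
mmu-miR-33-5p: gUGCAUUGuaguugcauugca
Serpinc1, chr1:161004789-161004795, + strand: aagcgctctgcCAATGCActttccctcac
Serpind1, chr16:17343198-17343204, + strand: gcacagatgttAATGCAActaatggttgt
F13a1, chr13:36868694-36868700, - strand: atggagattctAATGCAAaacatagctag
The letters searched in the transcript sequence were CAATGCAA, CAATGCA and AATGCAA, each base counted in the longest match only. CAATGCA pairs with all of bases 2 to 8. AATGCAA, the form in Serpind1 and F13a1, lacks the C that pairs with base 8, and its last A lies opposite base 1. Of the 31 members with an annotated 3'UTR, 3 (9.68%) held a match and 0 held the 8-letter form, against 15.7% and 2.15% of all 20830 genes with one. Of the 22 hepatocyte-made members, 2 (9.09%) held a match and 0 held the 8-letter form. The shares were 17.3% and 2.12% among the 6887 genes with a 3'UTR that passed the level minimum in hepatocytes. The match of Serpinc1, 2326 bases into a 3'UTR of 3400 bases, was in 1 of its 2 annotated 3'UTRs, and those of Serpind1 and F13a1 were in both of theirs. The match of F13a1 is in a gene that had 5 WT and 7 HKO UMIs in all hepatocyte-like barcodes. Over those 6887 genes, the median log2 HKO/WT ratio in hepatocyte-like barcodes was -0.01 for the 1192 with a match, -0.03 for the 5695 without and 0.00 for the 146 with the 8-letter form. The miRNA itself was not among the listed genes, and the level of Srebf2, whose intron holds Mir33, was 24.8 CPM (counts per 1e+06 UMIs) in WT and 19.5 CPM in HKO hepatocyte-like barcodes, which does not check the deletion.

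The libraries differed in depth. WT held 130451427 UMIs over 30078 barcodes and HKO 52563185 over 20000. After filters and removal of likely doublets, 22601 and 15583 barcodes were sorted into classes by fixed marker genes, and the 31 members were left out of the clustering. Hepatocyte-like barcodes were those in clusters that did not carry 3 or more markers of another cell type, with at least 2 times the commonest total of the library, which gave 1820 barcodes in WT (median 20668 UMIs) and 3483 in HKO (median 4304). The 19914 WT and 10121 HKO barcodes under that minimum are called barcodes of free RNA depth, because RNA released from broken hepatocytes is found in droplets of every kind. Of the non-parenchymal classes, the endothelial-like class had 63 WT and 128 HKO barcodes with all 12 endothelial markers detected, the macrophage-like class 31 and 143 with all 11 macrophage markers, and the monocyte and dendritic-like class 33 and 88. The WT barcode sequences were not used here, so barcodes shared by the libraries were not counted.

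UMIs of most hepatocyte-made members were found in barcodes of other classes too, and outside the hepatocyte-like class most were close to the level that free RNA would give. In WT endothelial-like barcodes, the UMIs of the 21 hepatocyte-made members other than Pros1 were 0.775 to 1.77 times what free RNA would give, scaled by the UMIs of albumin (Alb), with a median of 1.01. In HKO the range was 0.522 to 1.71 and the median 1.04. Free RNA also bears on the hepatocyte-like barcodes themselves: in CPM, the 22 members there were at 0.818 to 1.32 times their level in barcodes of free RNA depth in WT and at 0.725 to 1.29 times in HKO. The plot of levels by class shows the hepatocyte-made members other than Pros1 as bands across most classes and the 9 others as peaks in 1 or a few classes.

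**Figure D1:**
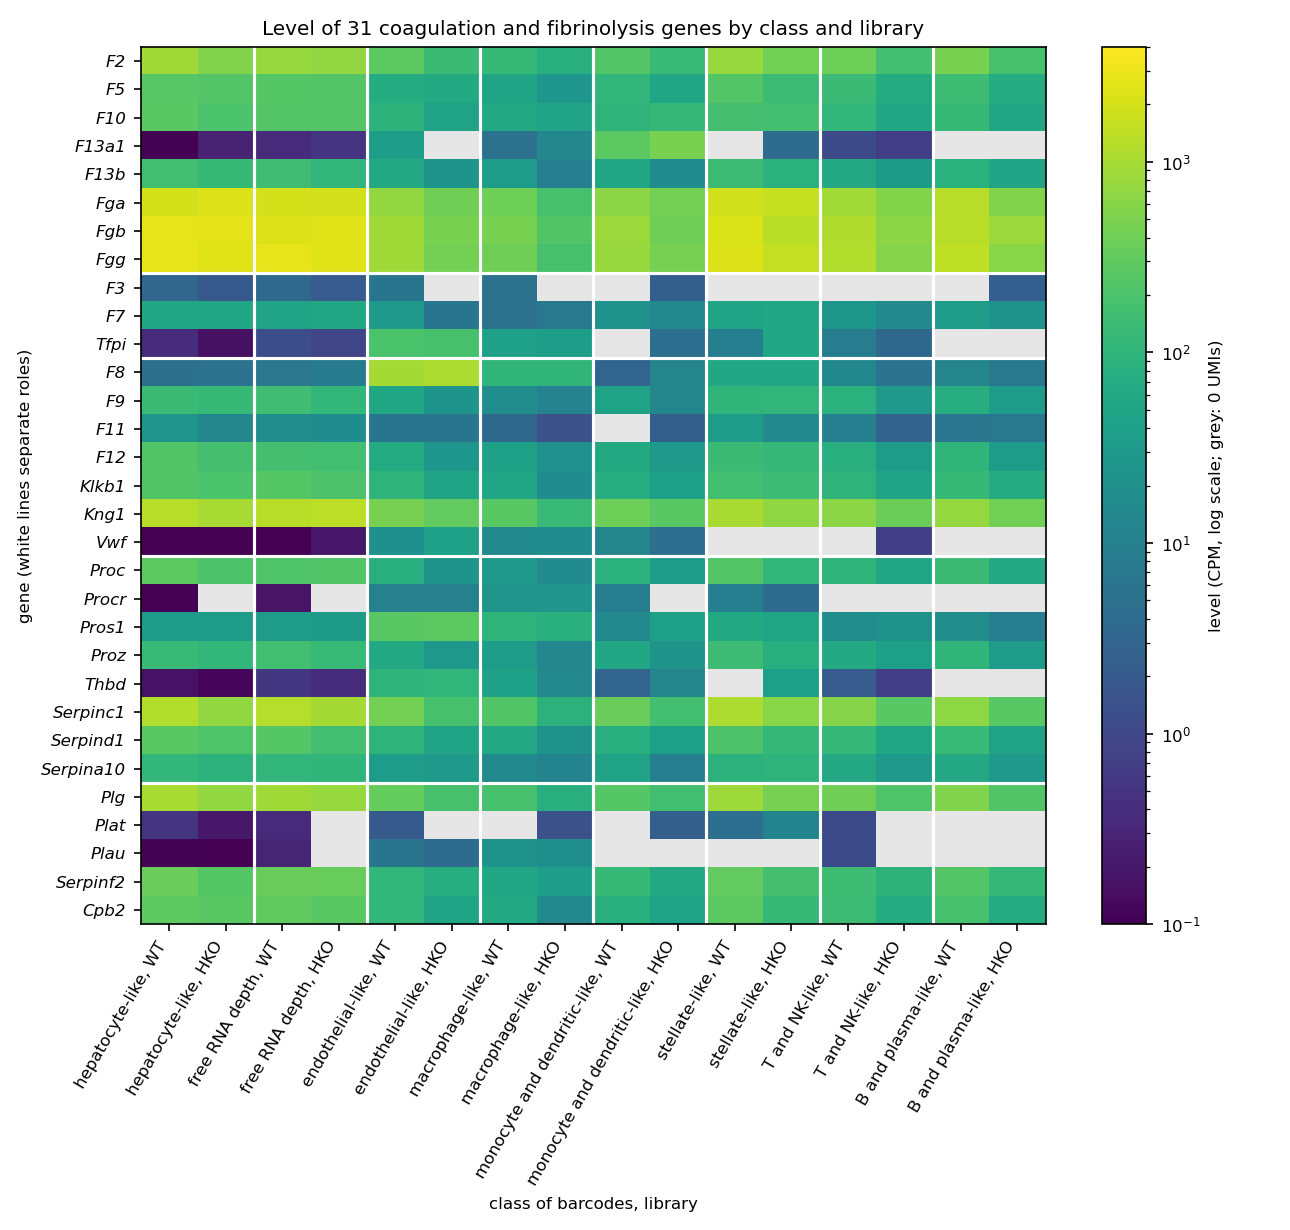
Level of each of the 31 genes (rows, grouped by role) in 8 classes of barcodes in the WT and HKO libraries (columns), as CPM on a log colour scale, with grey where no UMI was found. Hepatocyte-made genes other than Pros1 are about as bright in hepatocyte-like barcodes as in those of free RNA depth and fainter in most other classes, whereas F8, Tfpi and Thbd peak in endothelial-like barcodes and F13a1 in monocyte and dendritic-like barcodes.

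Of the 22 hepatocyte-made members, 19 were lower and 3 higher in HKO than in WT hepatocyte-like barcodes, and all 22 passed the level minimum of 10 CPM on average. Their median log2 HKO/WT ratio was -0.28, against -0.02 over the 7076 genes that passed, of which 53.4% were lower in HKO. General hepatocyte markers were lower too: the 11 on the marker list summed to 105861 CPM in WT and 91964 CPM in HKO, and Alb took 3.64% and 2.76% of the UMIs. Their part in the lower member levels was not tested. At a fold of 1.5, 3 members were lower (F11, Serpinc1 and F2), where 4.27% of all genes were, and 0 were higher, where 2.35% of all genes were. In the barcodes of free RNA depth the median of the 22 was -0.12 against -0.22 for all genes, and 0 members were 1.5-fold lower or higher, where 14.2% and 3.66% of all genes were. The part that free RNA plays in the ratios was not tested.

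The fibrinogen chains differed little between the libraries. Fga, the alpha chain, was at 2061 CPM (WT) and 2268 CPM (HKO), higher in HKO (ratio 1.10, interval 1.09 to 1.11). Fgb, the beta chain, was at 2667 and 2557 CPM (ratio 0.959), and Fgg, the gamma chain, at 2697 and 2408 CPM (ratio 0.893). The direction turned for Fga and Fgb, since in barcodes of free RNA depth the ratios were 0.958 for Fga, 1.03 for Fgb and 0.882 for Fgg, and Fgb was at 1.01 with no depth minimum. Their genes are neighbours on chromosome 3, with Fgg, Fga and Fgb in that order, 6.51 kb between the last pair and no other coding gene among them.

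Prothrombin stood apart from fibrinogen. F2, its gene, was at 868 CPM in the WT and 539 CPM in the HKO library, which gives a ratio of 0.621 (0.609 to 0.633). Across the 9 processing alternatives the F2 ratio was 0.599 to 0.718, but in barcodes of free RNA depth it was 0.918. The other members of the common pathway were closer to 1: F10, encoding the protease that cuts prothrombin, was at 267 and 197 CPM (ratio 0.739, but 1.02 in barcodes of free RNA depth), and F5, its cofactor, at 258 and 232 CPM (ratio 0.899). F13b, the carrier subunit of the fibrin-crosslinking factor XIII, was at 162 and 121 CPM (ratio 0.746), and at 0.710 in barcodes of free RNA depth.

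In the tissue factor and intrinsic pathways, F11 was the member past 1.5-fold. F11, encoding the protease that activates factor IX, had 1169 UMIs in WT and 341 in HKO, or 24.7 and 13.7 CPM (ratio 0.553, interval 0.489 to 0.624). Its ratio was 0.489 to 0.680 across the processing alternatives and 0.921 in barcodes of free RNA depth. Klkb1, the plasma prekallikrein gene 4.66 kb from F11 on chromosome 8, was at 229 and 199 CPM (ratio 0.868). The pair of neighbours therefore had ratios whose intervals did not overlap in hepatocyte-like barcodes. In barcodes of free RNA depth their order turned, with Klkb1 at 0.869 and F11 at 0.921. F7, the partner of tissue factor, was at 56.2 CPM (WT) and 58.3 CPM (HKO), and the interval of its ratio, 0.972 to 1.11, held 1. F10 and Proz, which follow F7 on chromosome 8 with no other coding gene between and lie 4.24 kb apart, had ratios of 0.739 and 0.859. F9, the factor missing in haemophilia B, was at 135 and 123 CPM (ratio 0.912), with a ratio of 0.709 in barcodes of free RNA depth. F12, which starts contact activation, was at 229 and 173 CPM (ratio 0.754). Kng1, encoding kininogen, was at 1296 and 1013 CPM (ratio 0.782), but its ratio was 1.05 in barcodes of free RNA depth. It has a near-identical neighbour, Kng2, so its value is uncertain by however the counting split the reads of the 2 genes.

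Among the anticoagulants, Serpinc1 was the member past 1.5-fold. Serpinc1, encoding antithrombin, the main inhibitor of thrombin and factor Xa, was at 1198 CPM in the WT and 721 CPM in the HKO library (ratio 0.602, interval 0.592 to 0.612). It is also the member with the seed match CAATGCA shown above. The ratio was 0.569 to 0.665 across the processing alternatives and 0.806 in barcodes of free RNA depth. Serpind1, encoding heparin cofactor II, was at 264 and 215 CPM (ratio 0.814), with 0.668 in barcodes of free RNA depth, and holds the AATGCAA match. Proc, encoding protein C, which inactivates factors V and VIII, was at 279 and 204 CPM (ratio 0.731), and turned to 1.05 in barcodes of free RNA depth. Pros1, encoding its cofactor protein S, was at 33.4 CPM (WT) and 33.5 CPM (HKO), with hardly a difference (ratio 1.00, interval 0.920 to 1.09). The protein Z system, which inhibits factor Xa, had ratios of 0.859 for Proz (131 and 112 CPM) and 0.836 for the inhibitor Serpina10 (110 and 91.8 CPM).

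The fibrinolysis members of hepatocyte origin were all below 1. Plg, the plasminogen gene, was at 1001 CPM in the WT and 731 CPM in the HKO library (ratio 0.730, interval 0.718 to 0.743). Serpinf2, encoding antiplasmin, which blocks plasmin, was at 351 and 246 CPM (ratio 0.700). Thus the precursor of plasmin and its inhibitor had ratios of like size. Cpb2, encoding a carboxypeptidase that slows fibrin breakdown, was at 288 and 268 CPM (ratio 0.930). In barcodes of free RNA depth the ratios were 0.915 for Plg, 0.941 for Serpinf2 and 0.874 for Cpb2.

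**Figure D2:**
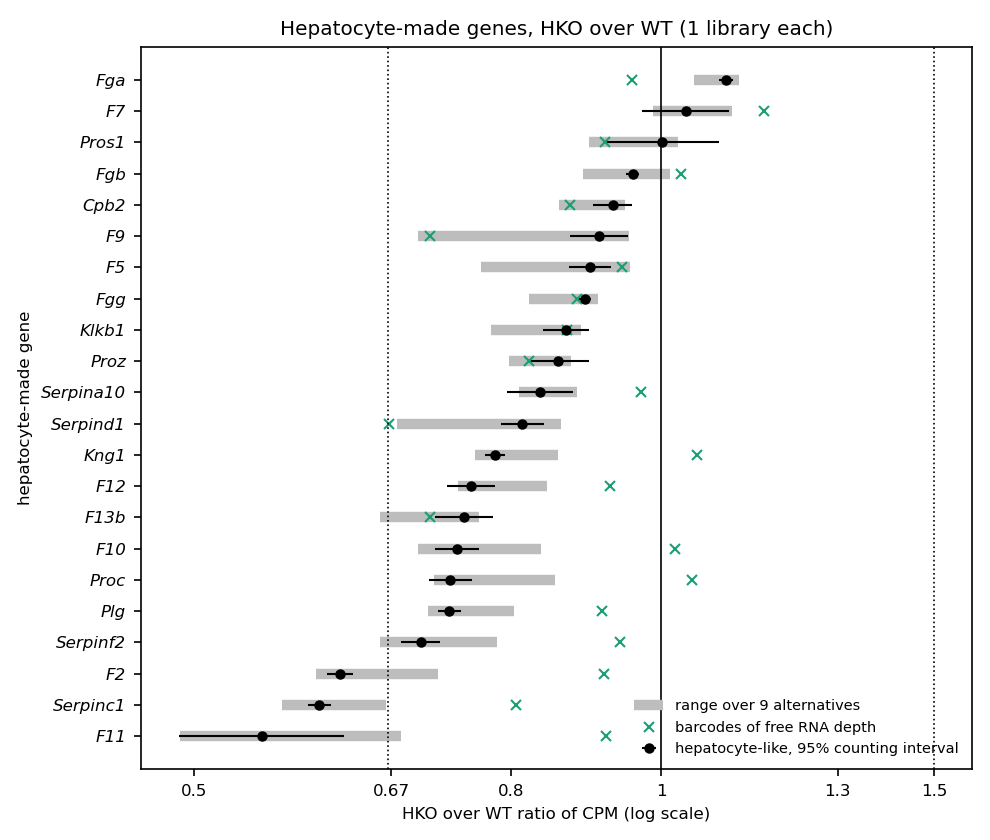
HKO over WT ratio of CPM (log axis) for the 22 hepatocyte-made genes: black points and lines give hepatocyte-like barcodes with their 95% counting interval, grey bars the range over 9 processing alternatives, green crosses the barcodes of free RNA depth, and dotted lines a fold of 1.5. F11, Serpinc1 and F2 lie left of the lower dotted line at 0.553, 0.602 and 0.621, and their crosses lie between 0.806 and 0.921.

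Most of the hepatocyte-made members were higher at the periportal than at the pericentral end of the liver lobule. Hepatocyte-like barcodes were ranked by periportal minus pericentral landmark genes, after thinning to 1000 UMIs, and cut into 3 parts of equal size (607, 607 and 606 barcodes in WT, 1161 each in HKO). Of the 22 hepatocyte-made members, 19 in WT and 20 in HKO were higher in the periportal than in the pericentral part, where 53.0% and 43.0% of all 7076 genes were. From the pericentral through the middle to the periportal part, 12 members in WT and 14 in HKO rose at each step, and 6 in each were highest in the middle part (F2, F12 and Kng1 in both, with Plg, Serpinc1 and Serpinf2 in WT and F10, F11 and Proc in HKO). Over all 7076 genes, 28.2% in WT and 20.4% in HKO rose at each step, and 19.4% and 16.5% were highest in the middle part. Kng1, for instance, was at 1119, 1422 and 1357 CPM in WT and at 845, 1132 and 1068 CPM in HKO. The middle part was the shallowest in both libraries. From pericentral to periportal, median depths were 21946, 18940 and 21158 UMIs in WT and 4247, 3447 and 5492 in HKO. Of the 6 HKO genes, all but F12 were at 0.734 to 0.901 times their level in barcodes of free RNA depth. In WT, Kng1, Serpinc1 and Serpinf2 were at 0.975 to 0.994 times it, and F2, F12 and Plg were above it. The part of depth and free RNA in these orders was not tested. The median periportal over pericentral ratio of the members was 1.17 in WT and 1.20 in HKO, against 1.01 and 0.97 over all genes. At a fold of 1.5, 0 of 22 passed in WT (all genes 2.63%) and 5 of 22 in HKO (all genes 3.34%), and 0 of 22 were 1.5-fold higher in the pericentral part in either library, where 2.32% and 5.34% of all genes were.

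The 5 were the 3 fibrinogen genes, F7 and Serpind1. Fga was at 1820 CPM in the pericentral, 2059 CPM in the middle and 2303 CPM in the periportal part of WT. In HKO it was at 1598, 2351 and 2791 CPM, so that the outer parts differed 1.27-fold in WT and 1.75-fold in HKO. The higher HKO level of Fga was therefore found in the periportal and middle parts and not in the pericentral part. Fgb had ratios of 1.29 and 1.55, Fgg of 1.29 and 1.61, F7 of 1.25 and 1.62, and Serpind1 of 1.32 and 1.51. Pros1 went the other way, with 38.2, 31.5 and 30.5 CPM from the pericentral to the periportal part of WT (ratio 0.799, interval 0.708 to 0.900), and with a HKO ratio of 0.879 whose interval, 0.746 to 1.03, held 1. F2 was nearly flat, at 1.08 in WT and 1.04 in HKO. The landmarks used for the ranking were themselves further apart in HKO: Glul, the pericentral glutamine synthetase, differed 7.55-fold between the outer parts in WT and 35.1-fold in HKO, and Hal, a periportal enzyme of histidine breakdown, 2.87-fold and 5.18-fold. Their part in the steeper HKO ratios was not tested. The parts are ranges of a score rather than cell types, and 108 to 175 barcodes per part in WT and 98 to 420 in HKO lay within 0.05 of a boundary.

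**Figure D3:**
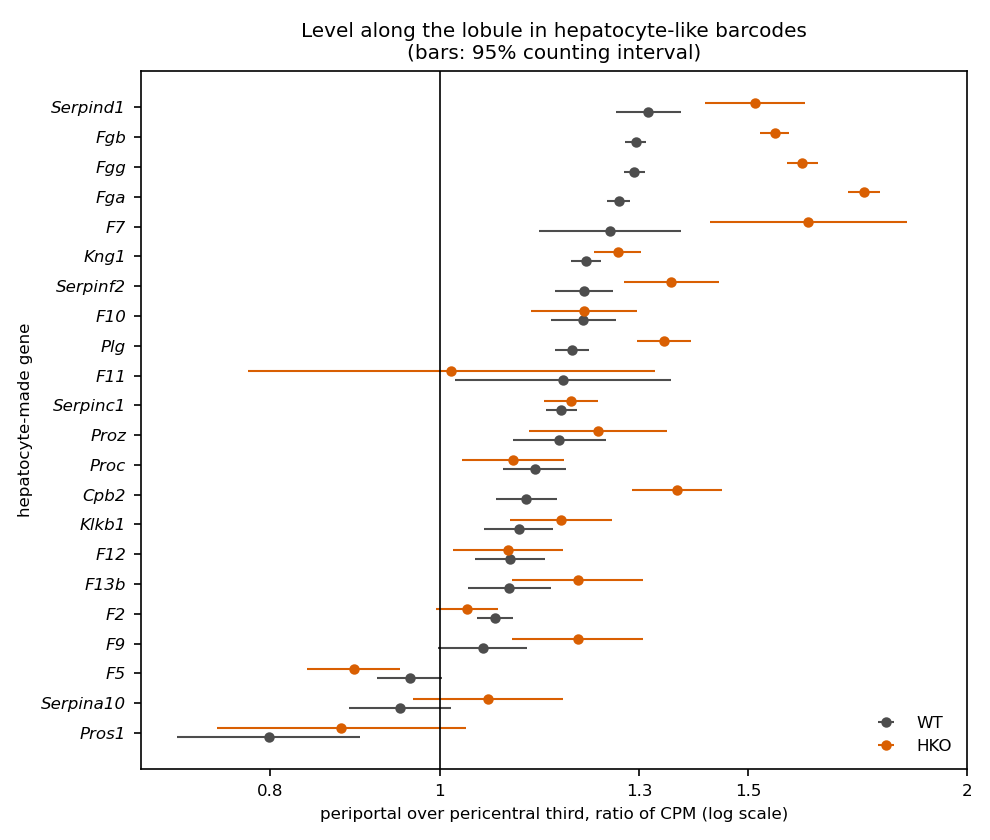
Ratio of CPM between the periportal and the pericentral part of the hepatocyte-like barcodes (log axis) for the 22 hepatocyte-made genes in WT (grey) and HKO (orange), with 95% counting intervals. The fibrinogen genes, F7 and Serpind1 lie at 1.25 to 1.32 in WT and at 1.51 to 1.75 in HKO, and Pros1 and F5 lie below 1 in both.

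The 9 members made mainly by other cells were all under 10 CPM in hepatocyte-like barcodes of both libraries, so no ratio between genotypes was read there. In the endothelial-like class, 4 of the 9 (F8, Tfpi, Thbd and Vwf) had at least 10 UMIs and at least 2 times the scaled free RNA in both libraries. That call is common, since 78.7% of WT and 90.4% of HKO genes with at least 10 UMIs passed it in that class. Of the 22 hepatocyte-made members, only Pros1 did so in both libraries.

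F8, the factor missing in haemophilia A and helper of factor IX, was highest in the endothelial-like class. There it had 464 UMIs in WT and 540 in HKO, which is 945 CPM (861 to 1035) and 1092 CPM (1001 to 1188). Free RNA would give 1.19 and 0.755 UMIs. A UMI of F8 was found in 98.4% of WT and 93.8% of HKO endothelial-like barcodes, and in 52.4% and 64.1% after thinning to 1000 UMIs. In T and NK-like barcodes, which should lack the gene, the shares were 2.72% and 1.60%, and 0.680% and 0.410% after thinning, at median depths of 6289 and 2604 UMIs against 7295 and 3666 in the endothelial-like class. Of the 13 F8 UMIs in WT T and NK-like barcodes, 10 were in 1 barcode. The F8 level in hepatocyte-like barcodes was 4.99 and 5.69 CPM, below its 6.72 and 7.43 CPM in barcodes of free RNA depth. The endothelial-like class held 33.7% of the F8 UMIs in WT and 36.6% in HKO, and a mixed class with endothelial, macrophage and stellate markers held 7.78% and 27.6%, at 271 and 396 CPM. The HKO/WT ratio of F8 in endothelial-like barcodes was 1.15 (1.02 to 1.31). The make-up of the class differed in the same direction, with the 12 endothelial markers at 10034 CPM in WT and 13616 CPM in HKO and the 11 hepatocyte markers at 35916 and 18343 CPM. Their part in the F8 ratio was not tested.

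Vwf, encoding the carrier of factor VIII in plasma, was by contrast found in few endothelial-like barcodes. It had 10 UMIs in 3 of 63 WT barcodes, 6 of them in 1 barcode, and 21 UMIs in 10 of 128 HKO barcodes. That is 20.4 CPM (9.77 to 37.5) and 42.5 CPM (26.3 to 64.9), intervals that overlap. Without the barcode with most Vwf UMIs in each library, the WT count fell under 10.

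Pros1 also stood above free RNA outside the hepatocyte-like class. In endothelial-like barcodes it was at 265 CPM (WT) and 279 CPM (HKO), with 130 and 138 UMIs where free RNA would give 6.13 and 3.23. Its level in CPM was thus higher there than in hepatocyte-like barcodes (33.4 and 33.5 CPM). The HKO/WT ratio in endothelial-like barcodes was 1.05 (0.823 to 1.35).

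Tfpi, the inhibitor of the tissue factor and factor VIIa complex, was at 198 CPM in endothelial-like barcodes of WT and 182 CPM in those of HKO, from 97 and 90 UMIs, and at 0.380 and 0.160 CPM in hepatocyte-like barcodes. Thbd, encoding thrombomodulin, the endothelial receptor that turns thrombin into an activator of protein C, was at 99.8 and 107 CPM in endothelial-like barcodes, from 49 and 53 UMIs. The intervals of both HKO/WT ratios held 1 (0.683 to 1.24 for Tfpi and 0.714 to 1.62 for Thbd). Procr, the endothelial protein C receptor gene, had only 5 UMIs in each library in that class.

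**Figure D4:**
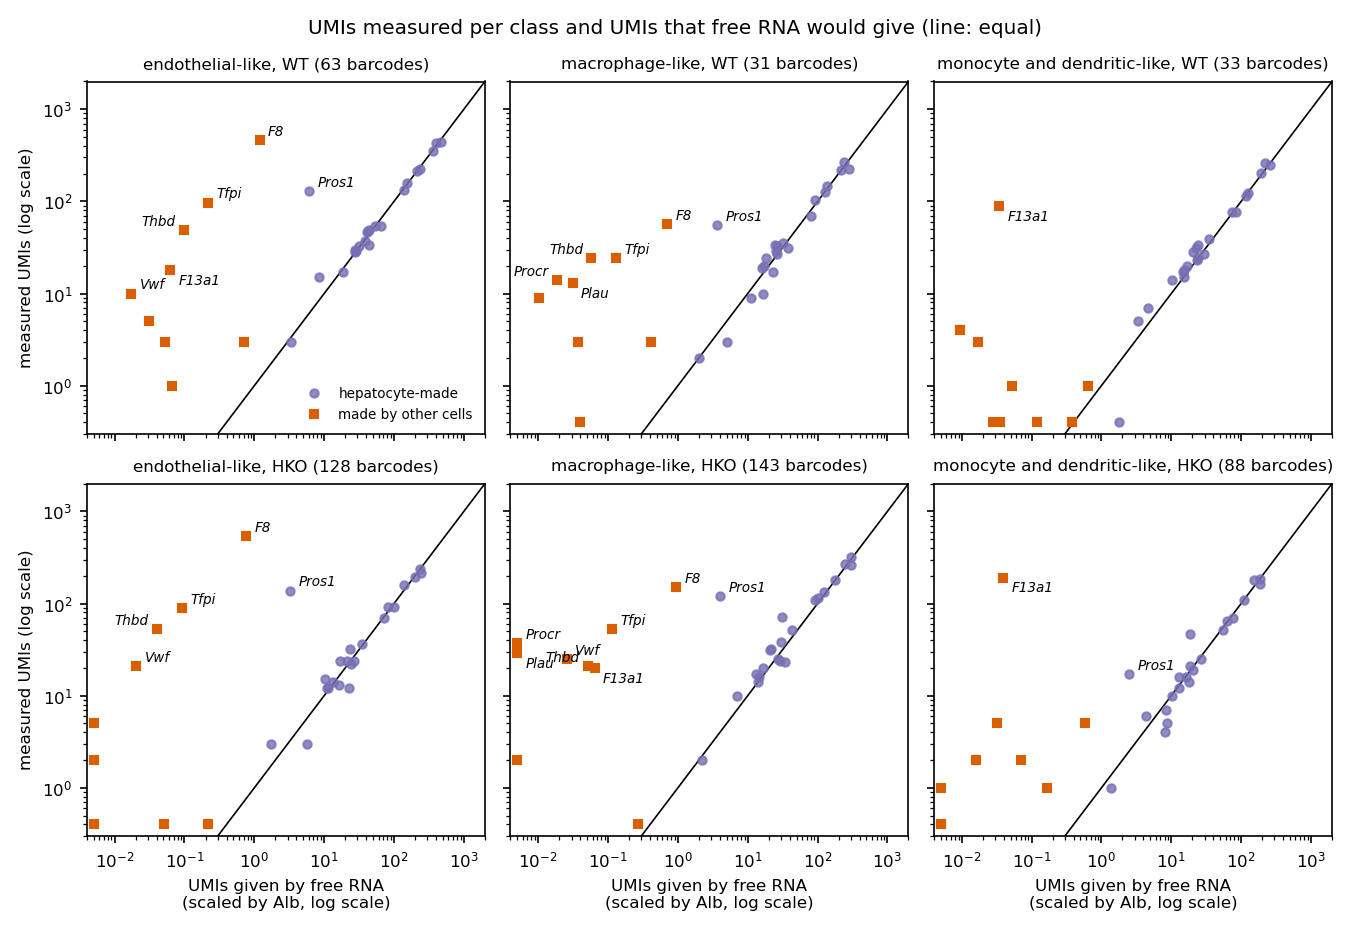
Measured UMIs of the 31 genes (vertical, log axis) against the UMIs that free RNA scaled by Alb would give (horizontal, log axis) in endothelial-like, macrophage-like and monocyte and dendritic-like barcodes of WT (top) and HKO (bottom), with hepatocyte-made genes as circles, the others as squares, a line where both are equal, and points on the left or lower edge at 0. Most circles lie on the line, whereas F8, Tfpi and Thbd in the endothelial-like class (464, 97 and 49 UMIs in WT) and F13a1 in the monocyte and dendritic-like class (89 and 191 UMIs) lie far above it.

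In the macrophage-like class, 5 of the 9 (F8, Tfpi, Thbd, Procr and Plau) passed the same call in both libraries, as did Pros1, where 90.6% of WT and 95.1% of HKO genes with at least 10 UMIs passed. Endothelial markers were present in this class: all 12 had UMIs, and their summed level was 1935 CPM in WT and 1968 CPM in HKO, which is 19.3% and 14.5% of that in the endothelial-like class. F8, at 102 and 104 CPM, was at 10.8% and 9.52% of its endothelial-like level, and Tfpi, at 42.8 and 36.5 CPM, at 21.7% and 20.0%. Thbd was at 42.9% and 13.5% of it, and Vwf, with 9 UMIs in WT (7 in 1 barcode) and 25 in HKO (10 in 1 barcode), at 78.8% and 40.5%. In the 3 WT and 12 HKO macrophage-like barcodes without a UMI of any endothelial marker, F8 had 0 UMIs, where its level in the whole class would give 5.36 and 6.44. Tfpi and Thbd also had 0 UMIs, where 2.26 and 2.26 would be given in WT and 2.26 and 0.895 in HKO. Pros1 was found there, with 5 UMIs in WT and 3 in HKO, as were Procr, with 1 and 3, and Plau, with 1 and 2. These barcodes are too few to place the source of any of the 6.

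Procr and Plau differed from this. Procr was at 25.0 CPM in macrophage-like barcodes of WT and 25.5 CPM in those of HKO (14 and 37 UMIs), 2.45 and 2.52 times its endothelial-like level. Plau, encoding urokinase, an activator of plasminogen, was at 23.2 and 20.0 CPM (13 and 29 UMIs), 3.79 and 4.94 times its endothelial-like level, with intervals of 1.04 to 20.8 and 1.25 to 42.7. The intervals for Procr, 0.834 to 8.70 and 0.988 to 8.21, held 1. Without the barcode with most UMIs in each library, Plau fell under 10 UMIs in WT.

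Pros1 in macrophage-like barcodes was at 98.1 CPM in the WT and 82.6 CPM in the HKO library (55 and 120 UMIs), 37.0% and 29.6% of its endothelial-like level. Thbd was at 42.8 CPM (WT) and 14.5 CPM (HKO), from 24 and 21 UMIs, the only one of the 6 members above free RNA in this class whose HKO/WT interval did not hold 1 (0.338, interval 0.179 to 0.633). In the same class the 11 macrophage markers summed to 16789 CPM in WT and 16714 CPM in HKO, but the hepatocyte markers were at 18031 and 8103 CPM, platelet markers at 178 and 58.5 CPM, of which 6 of 7 and 4 of 7 were at 0, and cholangiocyte markers at 32.1 and 182 CPM. Their part in the Thbd ratio was not tested. After thinning to 1000 UMIs, 9.68% of 31 WT and 0% of 143 HKO macrophage-like barcodes had a Thbd UMI.

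F13a1, the catalytic subunit of factor XIII, which crosslinks fibrin, was found mainly in monocyte and dendritic-like barcodes. It had 89 UMIs in 13 of 33 WT barcodes and 191 in 30 of 88 HKO barcodes, or 279 CPM (224 to 344) and 466 CPM (402 to 537). These barcodes held 61.8% of its UMIs in WT and 76.7% in HKO. It was the only one of the 9 to pass the call in both libraries in this class, where 82.5% and 90.9% of genes with at least 10 UMIs passed. The HKO/WT ratio was 1.67 (1.29 to 2.17), and the barcode with most F13a1 UMIs held 23 in WT and 36 in HKO. The 9 monocyte and dendritic markers also differed, at 1123 CPM in WT and 1560 CPM in HKO, as did the 11 hepatocyte markers, at 31375 and 18329 CPM. Macrophage markers were about as high in the class as its own, at 1271 and 1426 CPM. The part of these shifts in the F13a1 ratio was not tested. In hepatocyte-like barcodes the carrier subunit F13b was at 162 and 121 CPM and F13a1 at 0.106 and 0.280 CPM, so that the 2 subunits came from different classes. In 1 WT endothelial-like barcode there were 18 UMIs of F13a1, all that class held, and in HKO 0 in 128 barcodes. F10 also exceeded free RNA in the HKO monocyte and dendritic-like class, at 47 UMIs against 18.7, but in WT it had 31 against 22.5. In HKO macrophage-like barcodes F10 had 71 UMIs against 30.5, of which 28 were in 1 barcode. Proc had 54 UMIs in WT and 32 in HKO cholangiocyte-like barcodes, 1.89 and 2.73 times scaled free RNA.

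F3, the gene of tissue factor, was highest in the cholangiocyte-like class. It had 19 UMIs in 7 of 12 WT barcodes and 13 in 7 of 27 HKO barcodes, which is 80.6 CPM (48.5 to 126) and 51.1 CPM (27.2 to 87.4), intervals that overlap. Endothelial markers were present there too, at 259 and 1006 CPM. Without the barcodes that held one, F3 had 4 UMIs in 7 WT barcodes (28.9 CPM) and 5 in 20 HKO barcodes (36.5 CPM). In hepatocyte-like barcodes it was at 3.28 and 1.88 CPM, 0.792 and 0.982 times what free RNA would give, and in endothelial-like and macrophage-like barcodes it had 3 UMIs each in WT (6.11 and 5.35 CPM) and 0 in HKO, which allows up to 6.06 and 2.06 CPM. Plat, encoding tissue plasminogen activator, had 56 UMIs in all of WT and 19 in all of HKO. Of its 23 UMIs in WT hepatocyte-like barcodes, 16 were in 1 barcode, and in endothelial-like barcodes it had 1 UMI in WT and 0 in HKO.

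The wider pathway was read from a list of 40 other genes of coagulation and its control, of which 29 passed the level minimum in hepatocyte-like barcodes. Of these, 24 were lower in HKO and 5 were higher, and the median of their log2 ratios was -0.27. Over all 7076 genes 53.4% were lower, with a median of -0.02. At a fold of 1.5, 0 were higher and 3 were lower, where 2.35% and 4.27% of all genes were. Mcfd2, encoding a cargo receptor subunit that exports factors V and VIII from the endoplasmic reticulum, was at 145 CPM in the WT and 88.4 CPM in the HKO library (ratio 0.608). Hgfac, a secreted protease related to factor XII, was at 105 and 69.4 CPM (ratio 0.661), and Anxa2, a plasminogen receptor subunit, at 24.0 and 12.5 CPM (ratio 0.522). By group, the 7 genes of the vitamin K cycle and factor processing had ratios of 0.608 to 0.985, and for 2 of them, Vkorc1l1 and Pcsk6, the interval held 1. The 3 clearance receptors that passed were at 0.778 to 0.823. Vkorc1l1 and Pcsk6 were named after their values were seen. Of the 7 liver transcription factors, 3 were above 1 and 4 below, with a median of -0.12.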

How the data were processed

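The authors deposited UMI counts per gene and barcode, 1 matrix per library, and the submitters' processing notes name Cell Ranger 7.1.0, Seurat 3, R 3.0 and the mm10 build. Whether intronic reads were counted was not given in the sources used here. The deposited barcodes were filtered here at 500 UMIs, 300 genes and 50% mitochondrial UMIs. Scrublet's automatic threshold called 0 doublets, so the highest-scoring barcodes, 0.8% per 1000 barcodes, were left out (23.7% of WT and 14.6% of HKO). Barcodes were clustered with scanpy 1.11.5 in Python 3.11.15 (2000 variable genes without the members, 30 components, 15 neighbours, Leiden resolution 1.0). A class was named from at least 3 of its markers, each in 10% of barcodes and 2-fold over the pool. Hepatocyte-like barcodes had at least 5200 UMIs in WT and 1644 in HKO.

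Counts were summed per class and library and divided by the class total (CPM). Intervals were exact Poisson for CPM, exact conditional for ratios of counts and Clopper-Pearson for shares. They cover counting error only, since cells of a library are not replicates, and no p-value was computed. A gene had to reach a mean of 10 CPM for a HKO/WT call at 1.5-fold. The scripts were tested on simulated data. Free RNA was taken from barcodes of free RNA depth and scaled by Alb, and a gene above it had at least 10 UMIs and 2 times the scaled value. Where a class had 0 UMIs, the limit given is 3 counts. Alternatives are given in the closing section. All 31 members are named, and of the other pathway genes those past 1.5-fold. The members and lists were chosen with earlier results of these data known.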

Additional observations from a re-analysis of the deposited data

How the results depend on the processing

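The median log2 HKO/WT ratio of the 22 hepatocyte-made members in hepatocyte-like barcodes, -0.28 as reported, was between -0.37 (thinned to 1000 UMIs) and -0.24 (with at least 5000 UMIs in both libraries, or with no depth minimum) under the 9 processing alternatives. The number at least 1.5-fold lower was 3 as reported, 3 or 4 under 8 of these (3.93% to 9.70% of all genes, the most when thinned to 1000 UMIs) and 1 with no depth minimum (5.58% of all genes), where barcodes of free RNA depth enter, and the number at least 1.5-fold higher was 0 under each. In alternatives chosen after seeing the data, the median with barcodes of free RNA depth alone was -0.12 and the number lower 0 (all genes -0.22 and 14.2%), and with at least 5000 UMIs and at most 20% mitochondrial UMIs they were -0.29 and 4 (all genes -0.03 and 5.05%). Of the 9 members made by other cells, 4 in endothelial-like and 5 in macrophage-like barcodes were above scaled free RNA in both libraries. Without the barcode with most UMIs of each gene these were 3 and 4 (Vwf and Plau fell out), and with Leiden resolution 2.0 the macrophage-like number was 6. In another chosen after seeing the data, among the 3 WT and 12 HKO macrophage-like barcodes without a UMI of endothelial markers it was 0, which says nothing about the call, since it needs 10 UMIs and at the level of the class even F8 would give 5.36 and 6.44. Which of F11 and Serpinc1 had the lower ratio depended on the alternative (0.680 and 0.660 with no depth minimum, 0.579 and 0.569 with at most 20% mitochondrial UMIs), and the F11 interval holds the Serpinc1 ratio. The ratios of F11, Serpinc1 and F2 stayed below 1 under every alternative run. Depth limits the values outside hepatocyte-like barcodes, where several genes rest on fewer than 20 UMIs in a library. No paired analysis was possible because each genotype had 1 library.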
